A study of Mus musculus with 24 samples.

Results

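Rasgrp3, Slco2b1, Gpr34, Tox2, Cmah, Plekhh2, Etl4 and Galnt9 are 8 genes that were picked because their RNA was much lower in mouse macrophages after R837 than before it. They are 8 of the 52636 genes in each deposited file and 8 of the 14681 genes with enough counts to test, so every one of them passed the count filter. That filter ran over all 8 groups at once, so a gene can pass by its untreated counts alone. They were found by matching the Ensembl identifiers of the files to these symbols. Because the fall after R837 chose them, that fall is described here without a test. The comparisons between genotypes, which the choice did not name, were tested. They use libraries in which that fall was measured, so they draw in part on the values that chose the genes.

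The cells were bone marrow-derived macrophages, grown from the marrow of femurs and tibiae with M-CSF, the growth factor that drives marrow precursors to become macrophages. R837, or imiquimod, is an agonist of Toll-like receptor 7, which senses single-stranded RNA in endosomes. The 24 RNA-seq libraries formed 8 groups of 3: TBK1-cKD with IKKe knockout (written ∆IKKe), TBK1-cKD control, TBK1-WT with IKKe knockout and TBK1-WT control, each after 8 h of R837 and untreated. The control genotypes carry the label ∆control, which the labels do not explain. Per the design text, cKD stands for a conditional knockout of TBK1. The promoter or Cre line behind that allele is not given in the sources used here, and each record's protocol speaks of wild-type C57BL/6N animals. TBK1 (gene Tbk1) and IKKe (gene Ikbke) are related protein kinases that act downstream of innate immune receptors. Per the protocol the replicates came from 3 individual mice.

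Depth ran from 19.7 to 41.3 M gene counts per library (median 31.4 M). Tbk1 was at a mean of 6.22 log2 CPM (counts scaled to library size, on a log2 scale) in untreated TBK1-cKD control and 6.67 in untreated TBK1-WT control, and Ikbke at 5.13 in untreated TBK1-WT IKKe knockout, against 5.90 in untreated TBK1-WT control. In the fourth genotype Ikbke goes against the label in the untreated libraries and in the last R837 one. Untreated, it was at 6.31 in libraries labelled TBK1-cKD with IKKe knockout and 6.21 in TBK1-cKD control. After R837 the 3 libraries of that label stood at 6.28, 6.37 and 8.02. R837 libraries of TBK1-cKD control were at 7.9, 7.9 and 7.95, and those of TBK1-WT IKKe knockout at 6.27, 6.14 and 6.31. All libraries of the fourth genotype are therefore called the libraries labelled TBK1-cKD with IKKe knockout throughout. A second property divided the libraries: Malat1, Neat1 and Xist, which stay in the nucleus, averaged 8.94 to 9.46 log2 CPM in 14 libraries, namely all 12 untreated ones, the first R837 replicate of TBK1-WT control and the last of the libraries labelled TBK1-cKD with IKKe knockout. In the other 10, all after R837, it was 5.25 to 5.64. This property therefore moves with R837, and results are given below with and without those 2 R837 libraries where they differ. Among all libraries, the one with the fewest detected genes (14226) was R837 replicate 2 of TBK1-cKD control, which listed Slco2b1, Gpr34 and Cmah at 0. All 10 macrophage markers looked for had counts, and their summed level was 30200 to 35200 CPM in R837 libraries and 18500 to 26400 CPM in untreated ones. Summed markers of B and T lymphocytes were at 6.48 to 11.3 CPM in R837 libraries and 7.89 to 20.2 CPM in untreated ones, those of neutrophils and their precursors at 21.4 to 216 CPM against 1.26 to 8.86 CPM, and those of dendritic cells at 127 to 458 CPM against 111 to 223 CPM. Of the natural killer cell markers Klra8, Eomes and Gzma were at 0 in all libraries, as were Tpsb2 of mast cells and Hbb-bs of red cells, while the erythroid and megakaryocyte list summed to 134 to 247 CPM in R837 libraries and 127 to 179 CPM in untreated ones. The part of these other cells in the results was not tested, and in bulk RNA fewer cells of a type cannot be told apart from less RNA per cell.

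As background, macrophages that sense a pathogen through Toll-like receptors switch on inflammatory genes and at the same time lower many genes of the resting state, among them receptors, transporters and glycan enzymes that set what the cell takes up and shows on its surface. Rasgrp3 encodes an exchange factor that loads the small GTPases Ras and Rap with GTP when diacylglycerol is made at the membrane. Slco2b1 encodes an uptake transporter for organic anions such as steroid sulfates. Gpr34 encodes a receptor for lysophosphatidylserine that is abundant in microglia, the macrophages of the brain. Tox2 encodes an HMG-box DNA-binding protein of the TOX family, best known from lymphocytes. Cmah encodes the hydroxylase that turns the sialic acid Neu5Ac, in its CMP-bound form, into Neu5Gc, an enzyme that humans have lost. Plekhh2 encodes a protein with pleckstrin homology, MyTH4 and FERM domains that binds actin in kidney podocytes. Etl4, also called Skt or sickle tail, is known in mice from the development of the intervertebral discs. Galnt9 encodes a transferase that starts mucin-type O-glycans by adding N-acetylgalactosamine to a protein.

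The genes lie on 6 chromosomes of GRCm38, the build of the files: Rasgrp3 at chr17:75435896-75529054 (plus strand), Slco2b1 at chr7:99657804-99711340 (minus), Gpr34 at chrX:13632089-13640858 (plus), Tox2 at chr2:163203125-163324170 (plus), Cmah at chr13:24327404-24477377 (plus), Plekhh2 at chr17:84511895-84622138 (plus), Etl4 at chr2:19909780-20810713 (plus) and Galnt9 at chr5:110544355-110621380 (plus). Rasgrp3 and Plekhh2 share a chromosome, as do Tox2 and Etl4, but no member is the nearest gene of another. All 8 are protein-coding, and the counts are those of all their exons. Because the kit leaves strand unmarked, strand cannot separate reads where exons of different genes overlap. Only the spans of genes were compared here, not their exons. Gpr34 lies inside the span of Cask on the opposite strand, a gene with 21934 counts over the 24 libraries, which changed by -0.39 ± 0.09 log2 (standard error) after R837 in TBK1-WT control. Slco2b1 overlaps 2 antisense genes, Gm15635 and Gm34280, which had 4 and 14 counts in all.

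RefSeq promoter windows of 300 bases (250 before and 50 after an annotated start, GRCm38.p6) matched 7 of the 8 genes, with 18 windows between them. The window with the most upstream start is shown for Rasgrp3 and Slco2b1, the genes with the deepest falls among the 8 in TBK1-WT control, and for Tox2 and Galnt9, whose falls differed most between genotypes. Capitals mark matches, on either strand, to short motifs of factors active in macrophages. The motifs were GAGGAA (the core of PU.1, a factor that sets macrophage identity), GGNNNTTCC (NF-kB), TGANTCA (AP-1), GAAANNGAA (core of the interferon-stimulated response element), CACGTG (an E-box) and TGCTGA (a half-site of MAF factors).
Rasgrp3 (chr17:75435655-75435954, plus strand): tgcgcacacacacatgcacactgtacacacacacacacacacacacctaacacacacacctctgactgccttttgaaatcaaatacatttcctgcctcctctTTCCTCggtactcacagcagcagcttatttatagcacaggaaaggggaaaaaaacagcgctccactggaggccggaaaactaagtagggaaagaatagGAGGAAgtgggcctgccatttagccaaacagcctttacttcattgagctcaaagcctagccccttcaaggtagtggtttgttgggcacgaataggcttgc
Slco2b1 (chr7:99711291-99711590, minus strand): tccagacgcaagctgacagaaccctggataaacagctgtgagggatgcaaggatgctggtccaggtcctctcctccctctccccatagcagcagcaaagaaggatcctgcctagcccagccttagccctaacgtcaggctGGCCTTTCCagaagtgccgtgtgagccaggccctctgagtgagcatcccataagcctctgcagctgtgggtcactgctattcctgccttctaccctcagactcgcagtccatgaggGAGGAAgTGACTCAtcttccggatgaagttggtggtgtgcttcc
Tox2 (chr2:163202877-163203176, plus strand): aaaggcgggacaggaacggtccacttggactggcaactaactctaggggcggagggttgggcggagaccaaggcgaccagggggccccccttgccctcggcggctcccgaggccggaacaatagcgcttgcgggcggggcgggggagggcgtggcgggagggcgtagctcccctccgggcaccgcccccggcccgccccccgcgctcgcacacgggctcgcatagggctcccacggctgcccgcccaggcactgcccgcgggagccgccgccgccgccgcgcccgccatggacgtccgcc
Galnt9 (chr5:110544105-110544404, plus strand): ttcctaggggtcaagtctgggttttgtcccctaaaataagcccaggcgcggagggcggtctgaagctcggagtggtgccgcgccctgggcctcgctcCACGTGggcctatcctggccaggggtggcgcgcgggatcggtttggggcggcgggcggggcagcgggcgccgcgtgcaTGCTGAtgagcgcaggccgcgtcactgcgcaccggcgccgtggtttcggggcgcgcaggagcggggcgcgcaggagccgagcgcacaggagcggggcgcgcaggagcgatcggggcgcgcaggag

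The Rasgrp3 window held the PU.1 core at -50 relative to the start and, on the opposite strand, at -148, and had a GC content of 48.3%. The Slco2b1 window held an NF-kB match at -110 and, just past the start, the PU.1 core at 7 and an AP-1 match at 14. None of the 6 motifs was in the Tox2 window, whose GC content was 77.0%. The Galnt9 window, at 73.7% GC, held an E-box at -153 and a MAF half-site at -75. Over the 18 windows, the PU.1 core was in 4 windows (2 genes), the NF-kB letters in 3 (2 genes), the AP-1 letters in 1, the interferon element core in 4 (3 genes), the E-box in 2 (2 genes) and the MAF half-site in 5 (4 genes). Of all 32851 windows in the table, 28.3% held the PU.1 core, 18.5% NF-kB, 7.81% AP-1, 8.56% the interferon element core, 7.15% the E-box and 19.5% the MAF half-site. No motif was found in the windows of all 7 genes. Windows of 1 gene can overlap, as the first 2 of Tox2 do. Its last 2, chr2:163225203-163225502 and chr2:163225204-163225503, hold the same interferon element core and the same MAF half-site. Each of these sites is therefore counted in 2 windows.

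In TBK1-WT control macrophages the RNA of the 8 genes after R837 was between 0.891% (Rasgrp3) and 10.6% (Galnt9) of its untreated level. For the Ras exchange factor Rasgrp3 the R837 libraries held 1.57, 0.821 and 0.915 CPM, against 126, 127 and 118 CPM in untreated libraries. The transporter Slco2b1 stood at 0.661, 0.986 and 0.836 CPM after R837, against 90.3, 90.8 and 93.3 CPM untreated. In both genes the R837 libraries, the one of high nuclear RNA level included, lie around 100-fold below the untreated ones, at 112-fold for Rasgrp3 and 111-fold for Slco2b1 by the group means.

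The receptor Gpr34 held 0.391, 0.558 and 0.517 CPM after R837, against 41.8, 40.6 and 35.1 CPM in untreated TBK1-WT control. Tox2 held 0.343, 0.329 and 0.478 CPM after R837, against 31.5, 29.2 and 29.5 CPM untreated. Those levels were 80.1-fold and 78.6-fold lower after R837. Cmah, the sialic acid hydroxylase, was weaker throughout, with 0.0734, 0.0986 and 0.239 CPM after R837, against 10.8, 9.64 and 9.13 CPM untreated, a 72.1-fold lower mean. Its R837 values rest on 3, 3 and 6 counts.

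Plekhh2 held 0.269, 0.0986 and 0.318 CPM after R837, against 9.88, 12 and 10.1 CPM untreated. Etl4 held 0.881, 0.263 and 0.597 CPM after R837, against 15.9, 15.7 and 15.1 CPM untreated. Galnt9 held 0.636, 0.953 and 0.478 CPM after R837, against 6.35, 6.55 and 6.66 CPM untreated. These 3 genes kept more of their RNA than the other 5, at 2.15%, 3.73% and 10.6% of the untreated mean. For each of the 8 genes the R837 libraries of TBK1-WT control all lay below the untreated ones, which was also so for 34.9% of all genes tested and was fixed by how the genes were chosen. The same held for the 8 in the other genotypes, beside 37% of all genes in the libraries labelled TBK1-cKD with IKKe knockout, while TBK1-cKD control had 39.9% and TBK1-WT IKKe knockout 43.1%.

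**Figure D1:**
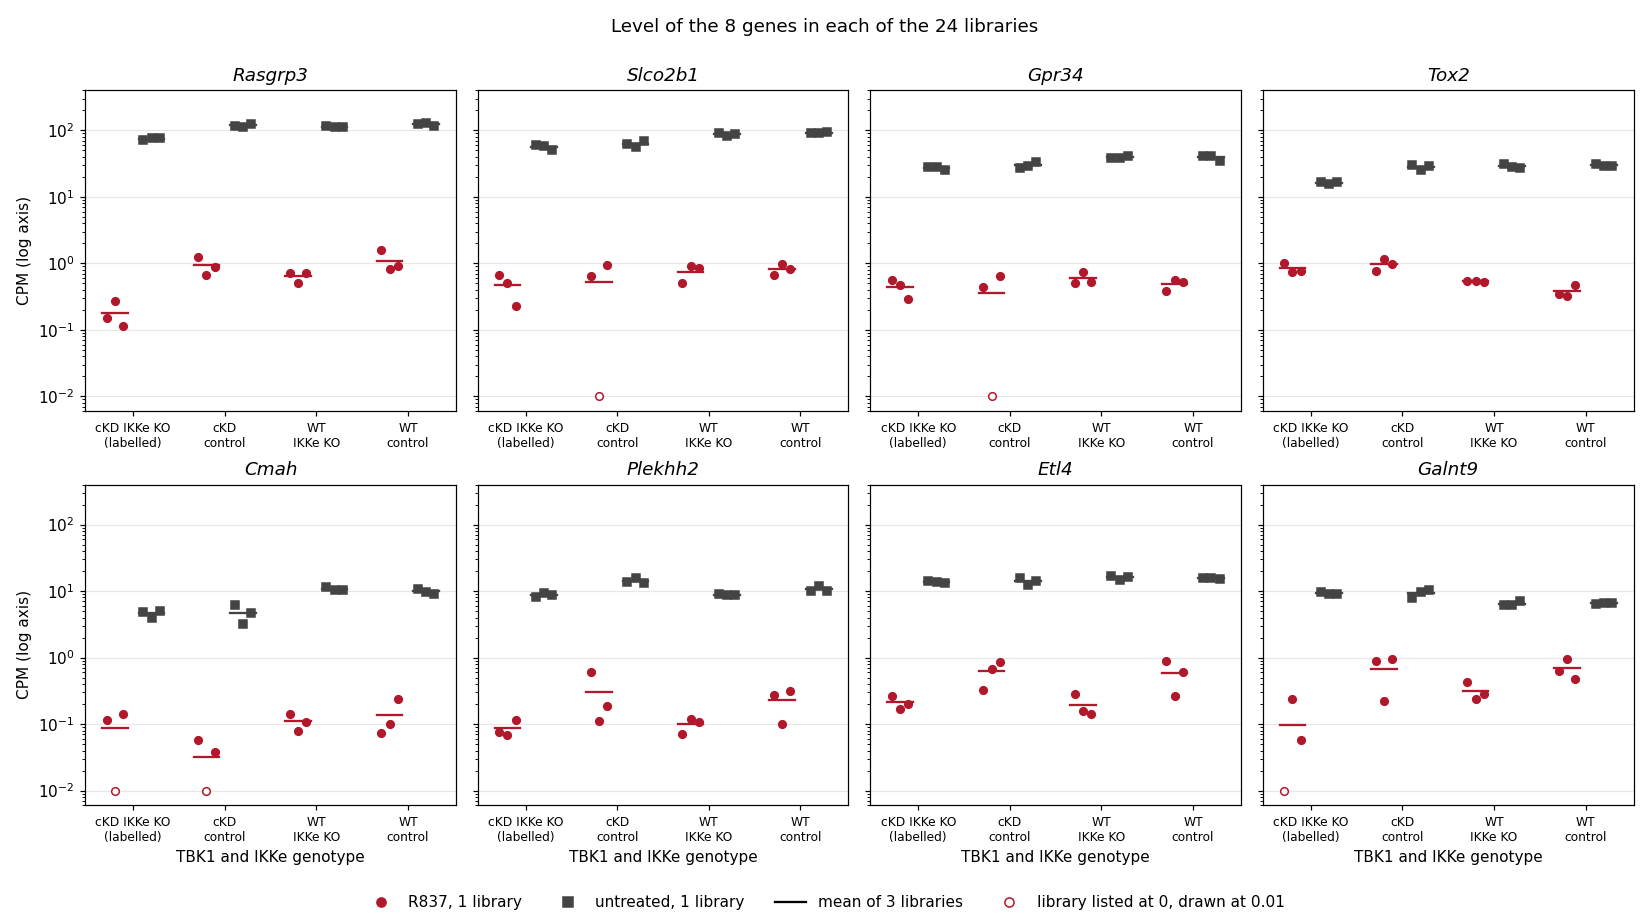
Level of each of the 8 genes in CPM, on a log axis, in each of the 24 libraries, with R837 libraries (circles) left of untreated ones (squares) in each genotype, bars for the mean of 3 libraries and open circles for libraries listed at 0. Untreated libraries sit between 3.16 and 127 CPM and R837 libraries between 0 and 1.57 CPM, with no overlap between the states in any gene.

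Per length of transcript, in the deposited RPKM, the order of the genes differed between the states. In untreated TBK1-WT control Rasgrp3 was the highest at 25.3 ± 1.02 RPKM (SD, n = 3), followed by Gpr34 at 18.9 ± 1.70, Slco2b1 at 17.4 ± 0.335, Tox2 at 9.56 ± 0.423, Galnt9 at 2.21 ± 0.0527, Plekhh2 at 1.56 ± 0.161, Etl4 at 1.51 ± 0.0422 and Cmah at 0.978 ± 0.0883 RPKM. After R837 in the same genotype Gpr34 at 0.201 ± 0.0331, Galnt9 at 0.2 ± 0.0703 and Rasgrp3 at 0.193 ± 0.0749 RPKM lay closer together than their SDs. Plekhh2 and Etl4 in untreated cells, and Gpr34 and Slco2b1, are likewise neighbours whose means differ by less than the larger SD. Cmah was the lowest of the 8 in both states, at 0.0115 ± 0.00727 RPKM after R837.

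The fitted log2 change in TBK1-WT control was -6.81 ± 0.27 for Slco2b1, -6.75 ± 0.17 for Rasgrp3, -6.34 ± 0.24 for Gpr34, -6.31 ± 0.14 for Tox2, -6.26 ± 0.35 for Cmah, -5.52 ± 0.27 for Plekhh2, -4.68 ± 0.24 for Etl4 and -3.22 ± 0.29 for Galnt9. The median of the 8 was -6.28, beside a median of -0.04 over all genes tested, of which 32% passed an adjusted p of 0.05 downward in this comparison. Without R837 replicate 1, the library of high nuclear RNA level, the median of the 8 was -5.98, and with that library as the only R837 one, so that all libraries compared were of the high level, it was -6.36. Ranked by the fall among all 14681 genes, Slco2b1 had rank 7 and Rasgrp3 rank 8, with the genes ahead of them at untreated levels of 0.496 to 7.01 CPM. Galnt9 had rank 237, so 229 genes outside the 8 fell at least as far as it did. Among the 9263 genes whose untreated level was at least that of Galnt9 (6.52 CPM), the ranks were 2 for Slco2b1, 3 for Rasgrp3, 5 for Gpr34, 6 for Tox2, 7 for Cmah, 10 for Plekhh2, 21 for Etl4 and 88 for Galnt9. The genes between them in that order, down to the rank of Plekhh2, were Zbtb16 (-6.97), Rtn4rl1 (-6.43), Ppm1e (-5.61) and Cd28 (-5.55), so the 8 are not simply the 8 deepest falls.

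In the other genotypes the R837 levels were low as well. The median log2 change of the 8 genes was -6.24 in the libraries labelled TBK1-cKD with IKKe knockout. TBK1-cKD control had a median of -5.77 and TBK1-WT IKKe knockout of -6.38, beside medians over all genes of -0.07, -0.08 and -0.07 in these 3 genotypes. Downward calls over all genes came to 34.8%, 37.5% and 37.8% in the same order. R837 counts of the 8 genes ran from 0 to 64 per library in the 4 genotypes, against 87 to 5923 counts in untreated libraries, so the depth behind an R837 level is small. The extreme is Cmah in TBK1-cKD control, with 3 counts over the 3 R837 libraries and 492 over the untreated ones, which leaves 0.773% of the untreated level with a 95% exact interval of 0.159% to 2.27%. For Rasgrp3 in the libraries labelled TBK1-cKD with IKKe knockout, 16 R837 counts against 7334 untreated counts leave 0.235%, with an interval of 0.135% to 0.383%. These intervals cover counting error only.

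**Figure D2:**
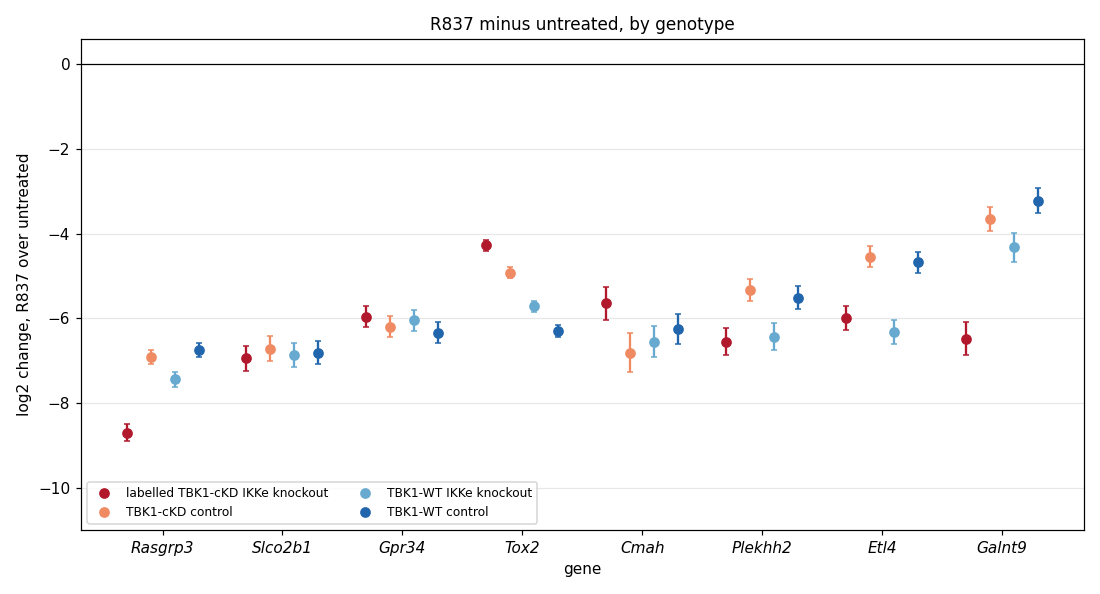
Fitted log2 change after R837 for each gene in the 4 genotypes (points, with bars of 1 standard error), R837 over untreated. Slco2b1 and Gpr34 sit close together over the genotypes, while Galnt9 runs from -6.48 in the libraries labelled TBK1-cKD with IKKe knockout to -3.22 in TBK1-WT control and Tox2 from -4.28 to -6.31 in the other direction.

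The genes fall into a few shapes over the 8 groups. Slco2b1 had log2 changes of -6.95, -6.72, -6.87 and -6.81 in the libraries labelled TBK1-cKD with IKKe knockout, TBK1-cKD control, TBK1-WT IKKe knockout and TBK1-WT control, a spread smaller than 1 standard error. Gpr34 was nearly as even, with -5.96, -6.20, -6.05 and -6.34. Rasgrp3 had -8.70, -6.92, -7.44 and -6.75 in the same order, and Galnt9 -6.48, -3.66, -4.32 and -3.22, both deepest in the libraries labelled TBK1-cKD with IKKe knockout. Tox2 ran the other way, with -4.28, -4.92, -5.72 and -6.31. Plekhh2 (-6.56, -5.34, -6.44 and -5.52) and Etl4 (-5.99, -4.55, -6.32 and -4.68) were deeper in both groups labelled IKKe knockout than in both control genotypes. Rasgrp3 and Galnt9 shared that order, as did Slco2b1 within its small spread. Cmah (-5.65, -6.81, -6.55 and -6.26) had no such order. Measured by the root-mean-square difference between centred group means of log2 CPM over the 8 groups, the closest pairs were Cmah with Gpr34 (0.33) and Etl4 with Plekhh2 (0.40), and the farthest was Galnt9 with Slco2b1 (1.64). Single libraries at 0 counts enter these means. With such a library, Slco2b1, Gpr34 and Cmah averaged -1.94 ± 2.81, -2.30 ± 2.50 and -4.36 ± 0.73 log2 CPM (SD) in TBK1-cKD control after R837. Galnt9 and Cmah likewise averaged -3.83 ± 1.87 and -3.82 ± 1.79 in R837 libraries labelled TBK1-cKD with IKKe knockout. How far these zeros set the distances was not tested.

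The first tested question was whether the untreated levels differed between genotypes. The untreated TBK1-WT control libraries that serve these comparisons are among those whose high level gave the fall that chose the genes. In the libraries labelled TBK1-cKD with IKKe knockout 5 of the 8 genes were lower than in TBK1-WT control at an edgeR adjusted p under 0.05 and none was higher, where 5.10% of all genes were called lower and 13.6% in either direction. In TBK1-cKD control 1 of the 8 was called, also lower, where 5.05% of all genes were called. In TBK1-WT IKKe knockout 0 of the 8 were called, and 0 of all 14681 genes (0%). No member had an unadjusted p under 0.05 in that comparison, and DESeq2 called none of the 8 either. The median differences of the 8 were -0.60, -0.12 and -0.03 log2 in these 3 comparisons, and the median over all genes was 0.00 in each. Beside these counts, the summed osteoclast markers, all 7 with counts, were at 1050 to 1060 CPM in untreated libraries labelled TBK1-cKD with IKKe knockout, 158 to 181 CPM in TBK1-cKD control and 84 to 102 CPM in TBK1-WT IKKe knockout, against 79.7 to 93.5 CPM in TBK1-WT control. After R837 they ran from 754 to 2030 CPM over the 4 genotypes. Summed stromal markers, all 9 with counts, were at 19.3 to 26.3 CPM in untreated libraries labelled TBK1-cKD with IKKe knockout, against 51.1 to 61 CPM in TBK1-WT control. The part of either list in the results was not tested. Where libraries of different genotypes are said below not to overlap, this describes the gene alone, with no share over all genes beside it.

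Cmah, the sialic acid hydroxylase, was lower in both TBK1-cKD genotypes. Untreated libraries labelled TBK1-cKD with IKKe knockout held 4.88, 3.98 and 4.97 CPM of Cmah and TBK1-cKD control 6.23, 3.16 and 4.60 CPM, against 10.8, 9.64 and 9.13 CPM in TBK1-WT control. No library of either TBK1-cKD genotype reached the lowest of TBK1-WT control. The differences from TBK1-WT control were -1.10 ± 0.22 log2 (edgeR adjusted p = 0.00104) and -1.07 ± 0.22 (edgeR adjusted p = 0.00389). TBK1-WT IKKe knockout, at 11.6, 10.3 and 10.2 CPM, overlapped TBK1-WT control.

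Tox2 and Rasgrp3 were called lower in the libraries labelled TBK1-cKD with IKKe knockout. Tox2 stood at 16.7, 15.9 and 16.5 CPM there and at 31.5, 29.2 and 29.5 CPM in TBK1-WT control, a difference of -0.88 ± 0.09 (edgeR adjusted p = 3.31e-07). Rasgrp3 stood at 72.8, 76.2 and 76.6 CPM there and at 126, 127 and 118 CPM in TBK1-WT control, a difference of -0.72 ± 0.12 (edgeR adjusted p = 0.000155). For both genes the libraries of TBK1-cKD control (25.6 to 30.6 CPM of Tox2, 113 to 126 CPM of Rasgrp3) and of TBK1-WT IKKe knockout (27.0 to 30.9 CPM and 111 to 118 CPM) overlapped those of TBK1-WT control, and whether they differed from the libraries labelled TBK1-cKD with IKKe knockout was not tested.

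Slco2b1 stood at 60.2, 59.2 and 51.4 CPM in untreated libraries labelled TBK1-cKD with IKKe knockout, against 90.3, 90.8 and 93.3 CPM in TBK1-WT control, a difference of -0.68 ± 0.19 (edgeR adjusted p = 0.0159). Gpr34 stood at 27.8, 27.8 and 25.6 CPM, against 41.8, 40.6 and 35.1 CPM in TBK1-WT control, a difference of -0.53 ± 0.16 (edgeR adjusted p = 0.0238). Both calls were lost without some single libraries: the Slco2b1 call held without replicate 1 or 2 of the libraries labelled TBK1-cKD with IKKe knockout and was lost without any other library of the comparison, and the Gpr34 call was lost without any single one other than TBK1-WT control replicate 3. The adjusted p reached 0.0915 for Slco2b1 (without replicate 3 of the libraries labelled TBK1-cKD with IKKe knockout) and 0.117 for Gpr34 (without TBK1-WT control replicate 1), while the differences stayed between -0.73 and -0.62 and between -0.61 and -0.48 over all alternatives run. In TBK1-cKD control the same 2 genes stood at 62.2, 56.7 and 68.3 CPM and at 27.3, 28.9 and 33.5 CPM. Those libraries also lay below all of TBK1-WT control, with differences of -0.55 ± 0.19 and -0.39 ± 0.16 that missed the threshold when all 24 libraries shared one estimate of the spread (edgeR adjusted p = 0.108 and 0.195). With the groups of the comparison alone they passed it (adjusted p = 1.56e-05 and 0.00227).

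Galnt9 had higher values in the untreated TBK1-cKD genotypes, at 9.66, 9 and 8.94 CPM in the libraries labelled TBK1-cKD with IKKe knockout and 7.93, 9.63 and 10.5 CPM in TBK1-cKD control, against 6.35, 6.55 and 6.66 CPM in TBK1-WT control. The groups did not overlap, and the differences of 0.50 ± 0.23 and 0.52 ± 0.23 missed the threshold (edgeR adjusted p = 0.184 and 0.267). With the groups of each comparison fitted alone they passed it (3.30e-05 and 0.00312). Plekhh2 was at 13.8, 15.7 and 13.3 CPM in TBK1-cKD control, against 9.88, 12 and 10.1 CPM in TBK1-WT control (0.42 ± 0.17, edgeR adjusted p = 0.223), and also passed when those groups were fitted alone (0.00419). Plekhh2 was instead at 8.03, 9.30 and 8.79 CPM in the libraries labelled TBK1-cKD with IKKe knockout, a difference of -0.29 ± 0.18 (edgeR adjusted p = 0.366) that passed with those groups alone (-0.31, adjusted p = 0.0067) and on the libraries of high nuclear RNA level (adjusted p = 0.0156). Etl4 had means of 13.6, 14 and 16 CPM in the libraries labelled TBK1-cKD with IKKe knockout, TBK1-cKD control and TBK1-WT IKKe knockout and 15.6 CPM in TBK1-WT control. For the first of these the libraries, at 14, 13.9 and 13.1 CPM against 15.9, 15.7 and 15.1 CPM in TBK1-WT control, did not overlap, and the difference of -0.19 ± 0.17 (edgeR adjusted p = 0.609) passed with the groups alone (-0.20, adjusted p = 0.00902). Counted over the 24 tests of 8 genes in 3 comparisons, 6 passed with all libraries fitted together, 13 with the groups of each comparison alone and 11 with DESeq2.

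**Figure D3:**
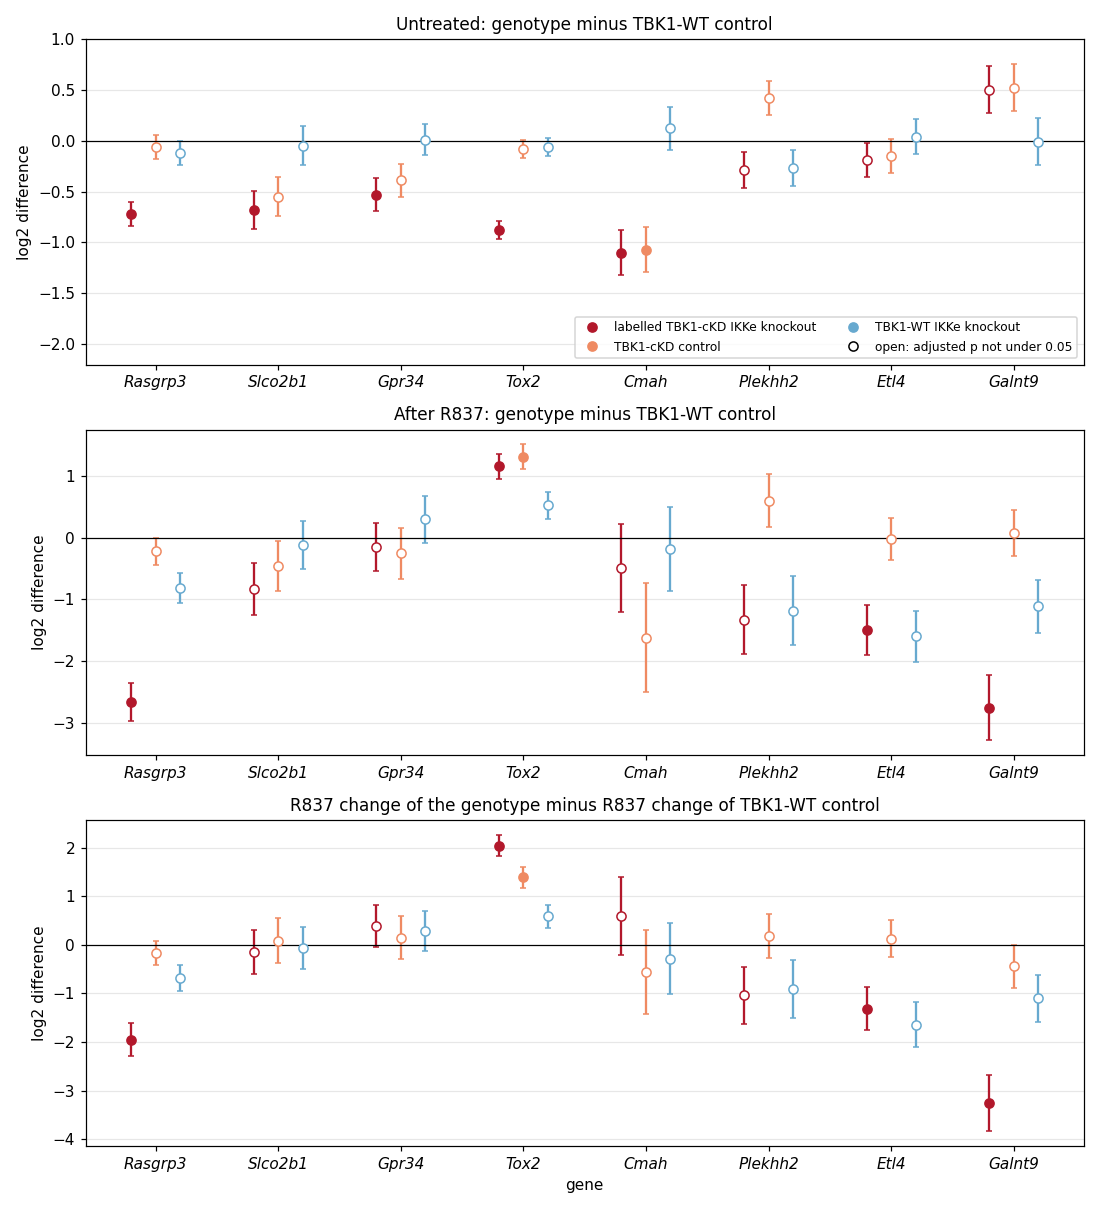
Log2 differences from TBK1-WT control for each gene (points, with bars of 1 standard error) in the libraries labelled TBK1-cKD with IKKe knockout, TBK1-cKD control and TBK1-WT IKKe knockout, untreated (top), after R837 (middle) and for the R837 change itself (bottom), with filled points where the adjusted p was under 0.05. In the untreated panel the filled points are all below 0, and in the lower panels Tox2 is above 0 and Rasgrp3, Etl4 and Galnt9 are below 0.

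After R837 the small remainders of some genes differed between genotypes. Of the 8 genes, 4 were called in the libraries labelled TBK1-cKD with IKKe knockout, 3 lower and 1 higher than in TBK1-WT control, where 15.5% of all genes were called lower, 16.7% higher and 32.2% in either direction. In TBK1-cKD control 1 of the 8 was called, where 8.89% of all genes were called. In TBK1-WT IKKe knockout 0 of the 8 were called by edgeR, where 1.85% of all genes were called, with 4 of the 8 at an unadjusted p under 0.05 and 3 of the 8 called by DESeq2. The 3 that DESeq2 called were Rasgrp3, Etl4 and Galnt9, all lower, with adjusted p of 0.0302, 0.00595 and 0.044. The TBK1-WT control libraries that serve all these comparisons are among those in which the genes were picked as low after R837.

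Rasgrp3 had its lowest levels of all groups in R837 libraries labelled TBK1-cKD with IKKe knockout. Its R837 level there was 0.151, 0.271 and 0.115 CPM, from 4, 8 and 4 counts, against 1.57, 0.821 and 0.915 CPM in TBK1-WT control, from 64, 25 and 23 counts. The difference was -2.66 ± 0.31 log2 (edgeR adjusted p = 6.34e-07). The groups did not overlap. The libraries of low nuclear RNA level held 0.151 and 0.271 CPM against 0.821 and 0.915 CPM, and the single ones of high level 0.115 CPM against 1.57 CPM. TBK1-cKD control held 1.26, 0.666 and 0.871 CPM and TBK1-WT IKKe knockout 0.720, 0.511 and 0.711 CPM.

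Galnt9 showed a similar difference on fewer counts. It held 0, 0.237 and 0.0577 CPM (0, 7 and 2 counts) in R837 libraries labelled TBK1-cKD with IKKe knockout, against 0.636, 0.953 and 0.478 CPM (26, 29 and 12 counts) in TBK1-WT control. The difference was -2.76 ± 0.53 (edgeR adjusted p = 0.000332), in the opposite direction from its untreated values in the same libraries, and ran from -4.26 (without replicate 2 of those libraries) to -2.27 (without their replicate 1). TBK1-cKD control, at 0.879, 0.222 and 0.946 CPM, and TBK1-WT IKKe knockout, at 0.432, 0.236 and 0.284 CPM, were not called. The second of the TBK1-cKD control values comes from the library with the fewest detected genes.

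Tox2 was the one gene of the 8 with a higher remainder in the TBK1-cKD genotypes. R837 libraries labelled TBK1-cKD with IKKe knockout held 1.02, 0.745 and 0.780 CPM and TBK1-cKD control 0.762, 1.17 and 0.984 CPM, against 0.343, 0.329 and 0.478 CPM in TBK1-WT control. Each library of both genotypes was above each TBK1-WT control library. The differences were 1.16 ± 0.20 (edgeR adjusted p = 0.00025) in the libraries labelled TBK1-cKD with IKKe knockout and 1.32 ± 0.20 (edgeR adjusted p = 0.000326) in TBK1-cKD control. With TBK1-cKD control and TBK1-WT control fitted alone, the second difference was 1.33 with an adjusted p of 0.291. TBK1-WT IKKe knockout lay between them, at 0.540, 0.550 and 0.533 CPM, with a difference of 0.53 ± 0.22 that was not called (edgeR adjusted p = 0.436).

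Etl4 held 0.265, 0.169 and 0.202 CPM in R837 libraries labelled TBK1-cKD with IKKe knockout, against 0.881, 0.263 and 0.597 CPM in TBK1-WT control, and the highest of the first is just above the lowest of the second. The difference was -1.50 ± 0.41 (edgeR adjusted p = 0.00646), with the untreated groups in the count filter. With the R837 groups of the comparison alone, Etl4 did not pass that filter and the difference was not tested. Without TBK1-WT control R837 replicate 1, the library of high nuclear RNA level, it was -0.98 with an adjusted p of 0.0964. TBK1-WT IKKe knockout, at 0.288, 0.157 and 0.142 CPM, differed from TBK1-WT control by -1.60 ± 0.42, which missed the threshold (edgeR adjusted p = 0.0604) and passed it with DESeq2 (0.00595), without the count filter (0.0262) and without TBK1-WT control R837 replicate 2 (0.00653). Without TBK1-WT control R837 replicate 1 it was -1.07 with an adjusted p of 0.607. For Slco2b1, Gpr34, Cmah and Plekhh2 no difference after R837 was detectable by edgeR with all libraries at this depth, where 0 to 30 counts per library stood behind each value. DESeq2, though, called Slco2b1 lower in the libraries labelled TBK1-cKD with IKKe knockout (-0.83, adjusted p = 0.016), and Plekhh2 was called lower there without TBK1-WT control R837 replicate 2 (-1.67, edgeR adjusted p = 0.0249). Without the high-level R837 replicate 3 of that label the Slco2b1 difference was -0.46 (edgeR adjusted p = 0.443). Without TBK1-WT control R837 replicate 1 it was -1.01 (edgeR adjusted p = 0.0983). On the libraries of high nuclear RNA level, with 1 library per R837 group, it was -1.49. Over the 24 tests of 8 genes in 3 comparisons after R837, 5 passed with all libraries, 8 without TBK1-WT control R837 replicate 2 and 9 with DESeq2. With the groups of each comparison alone 3 passed, but fewer than 24 tests were run. Cmah and Plekhh2 did not pass the count filter there, nor did Etl4 in either genotype labelled IKKe knockout.

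The next question was whether the change after R837 itself differed between genotypes, tested as the R837 change of an altered genotype minus that of TBK1-WT control. Of the 8 genes, 4 passed in the libraries labelled TBK1-cKD with IKKe knockout, where 17.3% of all genes did. In TBK1-cKD control 1 of the 8 passed, where 0.879% of all genes did. In TBK1-WT IKKe knockout 0 of the 8 passed with edgeR, where 0.245% of all genes did, 3 of the 8 had an unadjusted p under 0.05, and DESeq2 called Etl4 (-1.66, adjusted p = 0.0212). That Etl4 difference passed with edgeR without TBK1-WT control R837 replicate 2 (-1.98, adjusted p = 0.031) and was -1.11 with an adjusted p of 0.923 without replicate 1. The 8 genes were picked for their fall after R837, and these differences are contrasts of such falls, so they draw in part on the values that chose the genes. Tox2 fell less deeply, by 2.04 ± 0.22 log2 in the libraries labelled TBK1-cKD with IKKe knockout (edgeR adjusted p = 5.23e-07) and by 1.39 ± 0.22 in TBK1-cKD control (edgeR adjusted p = 0.00394). In the first of these both its lower untreated level and its higher R837 level enter the difference, and in the second almost all of it is the R837 level, since the untreated means were 28.5 CPM in TBK1-cKD control and 30.1 CPM in TBK1-WT control.

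Rasgrp3 fell more deeply in the libraries labelled TBK1-cKD with IKKe knockout than in TBK1-WT control, with a difference of -1.95 ± 0.34 (edgeR adjusted p = 0.000283). Galnt9 did so with -3.25 ± 0.58 (edgeR adjusted p = 0.000311). Without TBK1-WT control R837 replicate 1 these 2 differences were -1.56 and -3.34, and without R837 replicate 3 of the libraries labelled TBK1-cKD with IKKe knockout they were -1.68 and -2.94, all past the threshold. Galnt9 moved most without R837 replicate 2 of the libraries labelled TBK1-cKD with IKKe knockout, to -4.75, and ran from -4.75 to -2.77 over all single libraries left out. On the 14 libraries of high nuclear RNA level, where each R837 group has 1 library, they were -2.99 and -3.88. Etl4 had a difference of -1.31 ± 0.44 that passed narrowly (edgeR adjusted p = 0.0464) and was -0.79 with an adjusted p of 0.25 without TBK1-WT control R837 replicate 1. It also missed the threshold with other size factors (0.0512), with the groups of the comparison alone (0.0663) and without most other single libraries.

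Slco2b1, Gpr34 and Cmah, which were called lower in untreated libraries labelled TBK1-cKD with IKKe knockout, had no response difference past the threshold. In the libraries labelled TBK1-cKD with IKKe knockout their response differences were -0.15 ± 0.45, 0.39 ± 0.43 and 0.60 ± 0.80 log2, and in TBK1-cKD control 0.09 ± 0.47, 0.15 ± 0.45 and -0.56 ± 0.86. The standard errors are as large as or larger than most of these values, so differences of that size were not detectable at this depth.

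Genes of the same families as the 8 moved in both directions after R837. Among 39 tested Ras and Rap exchange factors, GTPases and their activating proteins outside the 8, 17 rose and 13 fell after R837 in TBK1-WT control, where 30.6% of all genes rose and 32% fell, with a list median of 0.04 beside -0.04 over all genes. Rasgrp1, an exchange factor of the same family that is best known from T cells, rose to 15.6 CPM after R837, against 0.136 CPM untreated (6.75 ± 0.21, edgeR adjusted p = 1.11e-16), a change equal in size and opposite in sign to that of Rasgrp3. In the libraries labelled TBK1-cKD with IKKe knockout Rasgrp1 was at 39.7 CPM after R837 and already at 7.44 CPM untreated. Rasgrp2 and Rasgrp4, also of that family, changed by -0.85 ± 0.26 and -1.01 ± 0.21 in TBK1-WT control (edgeR adjusted p = 0.0083 and 0.000258). Both were called lower in each of the other genotypes as well. The other strongest riser of the list was Rasgrf1, a calcium-sensing Ras exchange factor (5.85 ± 0.51, edgeR adjusted p = 6.58e-09), and the deepest falls were those of the exchange factor Rasgef1a (-2.94 ± 0.19, edgeR adjusted p = 2.86e-11) and the Ras GTPase-activating protein Rasal1 (-2.69 ± 0.17, edgeR adjusted p = 9.52e-12).

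Of 11 tested organic anion transporters and ABC efflux partners other than Slco2b1, 5 rose and 5 fell in TBK1-WT control, with a list median of -0.18. Slco3a1 rose to 150 CPM after R837, against 4.32 CPM untreated (5.11 ± 0.10, edgeR adjusted p = 5.38e-20), while Slco2b1 was at 0.827 CPM after R837 and 91.5 CPM untreated in the same libraries. Slco4a1, another uptake transporter, rose to 25.2 CPM, against 3.20 CPM untreated (2.97 ± 0.17, edgeR adjusted p = 3.02e-12). In the libraries labelled TBK1-cKD with IKKe knockout it was at 10.9 CPM after R837 and 9.95 CPM untreated (0.13 ± 0.16, edgeR adjusted p = 0.503). The efflux pump gene Abcc2 (-4.03 ± 0.46, edgeR adjusted p = 1.68e-07) and Slco5a1 (-2.30 ± 0.48, edgeR adjusted p = 0.000293) also fell, with untreated levels of 0.921 and 0.423 CPM.

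Of 20 tested lysophospholipid and P2Y-like receptors other than Gpr34, 6 rose and 11 fell in TBK1-WT control, with a list median of -0.41. P2ry1 and P2ry12, receptors for ADP, fell, with log2 changes of -3.97 ± 0.19 and -3.60 ± 0.18 (edgeR adjusted p = 1.01e-13 and 3.65e-13). Lpar1, a receptor for lysophosphatidic acid, and P2ry2, a receptor for ATP and UTP, rose by 3.09 ± 0.15 and 2.53 ± 0.08 (edgeR adjusted p = 1.74e-13 and 1.14e-16). Among 23 tested genes of resting microglia and resident macrophages, 5 rose and 13 fell, with a median of -0.61. Gas6, a bridging ligand for the clearance of dead cells, fell to 49.9 CPM, against 555 CPM untreated (-3.48 ± 0.11, edgeR adjusted p = 2.02e-16), while Tmem119 (3.24 ± 0.17, edgeR adjusted p = 4.09e-13) and the chemokine receptor Cx3cr1 (1.03 ± 0.08, edgeR adjusted p = 7.25e-10) rose. The list therefore did not move as one, and Cx3cr1 changed by -0.19 ± 0.08 in the libraries labelled TBK1-cKD with IKKe knockout (edgeR adjusted p = 0.0452).

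Of 24 tested genes of sialic acid synthesis, transfer and recognition other than Cmah, 5 rose and 12 fell in TBK1-WT control, with a median of -0.44. St6gal1, which adds sialic acid to the ends of N-glycans, fell to 13.3 CPM, against 151 CPM untreated (-3.51 ± 0.13, edgeR adjusted p = 1.17e-15). Siglece, a sialic acid-binding inhibitory receptor, rose to 73.5 CPM, against 1.62 CPM untreated (5.49 ± 0.12, edgeR adjusted p = 2.97e-19), and the sialyltransferase St3gal3 rose by 1.66 ± 0.10 (edgeR adjusted p = 8.59e-12). Siglech, a marker of plasmacytoid dendritic cells, was at 0.0352 CPM after R837 and 0.393 CPM untreated (-3.45 ± 1.42, edgeR adjusted p = 0.0418), and its call was lost without TBK1-WT control R837 replicate 1 (adjusted p = 0.123). Gne and Nans, which act in making the sialic acid that Cmah works on in its CMP-bound form, moved by -0.61 ± 0.09 and -0.32 ± 0.08 (edgeR adjusted p = 3.91e-06 and 0.00259). From the same list, Cmas moved by 0.21 ± 0.06 (edgeR adjusted p = 0.00248) and Npl by -1.83 ± 0.29 (edgeR adjusted p = 1.28e-05).

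Of 15 tested mucin-type O-glycosylation enzymes other than Galnt9, 1 rose and 8 fell, with a median of -0.28. Galnt1, an abundant transferase of the Galnt9 family, was at 76.9 CPM after R837 and 73.7 CPM untreated, and Galnt6 at 120 and 124 CPM. Neither passed the threshold (edgeR adjusted p = 0.491 and 0.805), nor did Galnt7, at 118 and 136 CPM (edgeR adjusted p = 0.0561). Galnt6 was called lower in each of the other genotypes (edgeR adjusted p of 0.00876 to 0.0304). In TBK1-WT control Galnt10 (-0.50 ± 0.08, edgeR adjusted p = 1.14e-05) and Galnt11 (-0.28 ± 0.07, edgeR adjusted p = 0.000857) were called lower. Galnt12 (-3.09 ± 0.14, edgeR adjusted p = 3.67e-14) and Galnt3 (-2.57 ± 0.42, edgeR adjusted p = 1.95e-05) fell, and C1galt1c1, the chaperone of the enzyme that extends these glycans, rose by 0.63 ± 0.10 (edgeR adjusted p = 8.33e-06). Tox4, the one tested relative of Tox2, rose by 0.45 ± 0.05 (edgeR adjusted p = 4.46e-08), with Tox and Tox3 holding 2 and 3 counts over all 24 libraries. Of 3 tested MyTH4-FERM genes other than Plekhh2, 2 fell and 0 rose: Plekhh3 (-0.70 ± 0.16, edgeR adjusted p = 0.000852) and the unconventional myosin Myo7a (-0.55 ± 0.14, edgeR adjusted p = 0.00231). Srcin1, the relative of Etl4, had 52 counts over all libraries and was not tested.

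In the other genotypes, 31.6%, 31.6% and 32.4% of all genes rose and 34.8%, 37.5% and 37.8% fell in the libraries labelled TBK1-cKD with IKKe knockout, TBK1-cKD control and TBK1-WT IKKe knockout. The lists were counted there as well. The Ras and Rap list had 19, 17 and 19 genes up and 16, 16 and 18 down in that order, and the sialic acid list 7, 6 and 9 up and 12, 10 and 13 down. The O-glycosylation list had 2, 1 and 3 up and 9, 10 and 9 down. The transporter list had 4, 5 and 5 up and as many down. The P2Y-like receptors had 5, 6 and 6 up and 11, 9 and 12 down, and the resident macrophage list 2, 6 and 4 up and 14, 10 and 13 down. Tox4 rose in each, and of the MyTH4-FERM genes 2, 2 and 3 fell.

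**Figure D4:**
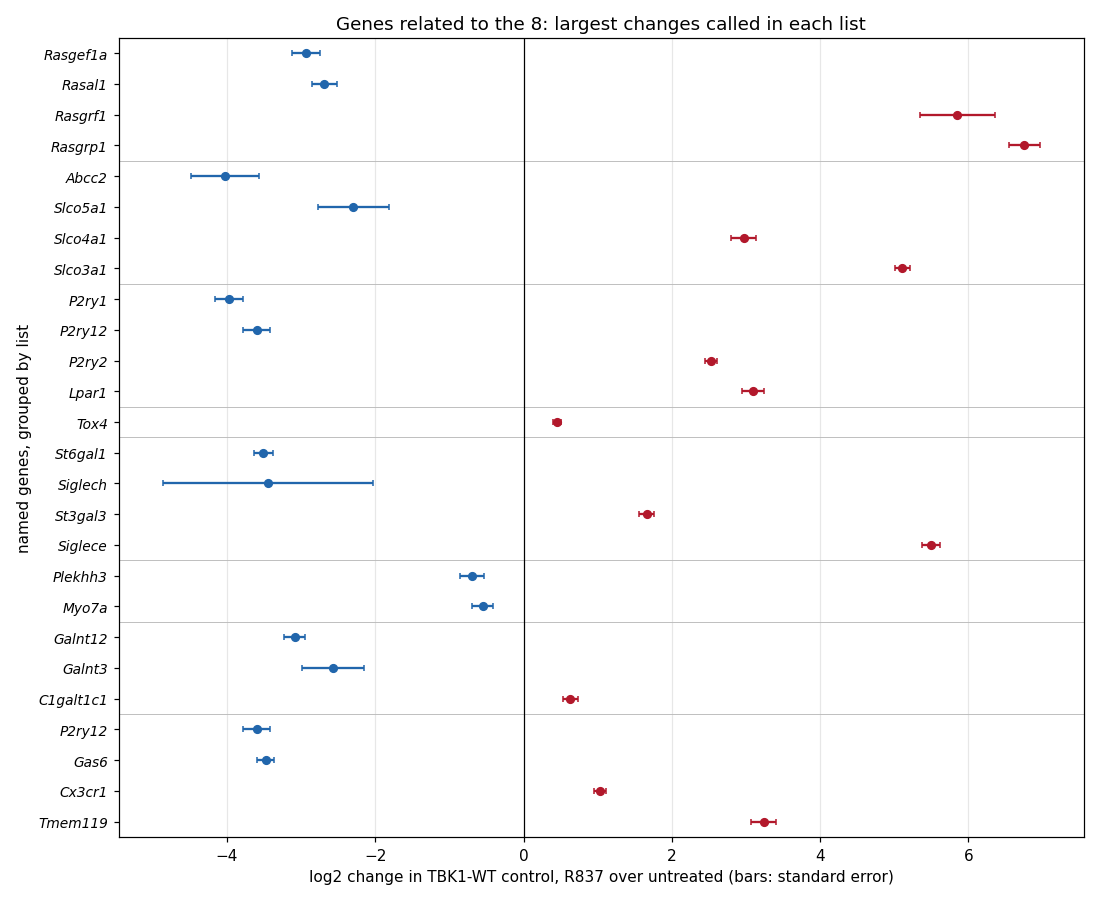
Log2 change after R837 in TBK1-WT control (points, with bars of 1 standard error) of the genes with the largest called changes in each list of related genes, grouped by list and named on the left. Rasgrp1, Slco3a1 and Siglece lie far to the right of 0 at 6.75, 5.11 and 5.49, and Abcc2, P2ry1 and St6gal1 at -4.03, -3.97 and -3.51.

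Outside these families, the 5 genes whose profile over the 8 groups was closest to the mean profile of the 8 were Npas4, Cd28, C030034L19Rik, Rtkn2 and Nanos1, at root-mean-square differences of 0.21, 0.30, 0.33, 0.34 and 0.38 log2. The 8 members themselves lay between 0.36 (Plekhh2) and 1.01 (Galnt9) from that mean. Cd28, a costimulatory receptor best known from T cells, averaged 0.64, 1.34, 1.20 and 1.44 log2 CPM after R837 in the libraries labelled TBK1-cKD with IKKe knockout, TBK1-cKD control, TBK1-WT IKKe knockout and TBK1-WT control, against 6.28, 6.51, 7.17 and 6.99 log2 CPM untreated. Npas4, a transcription factor of activity-dependent genes in neurons, averaged -3.02, -2.52, -2.35 and -2.29 log2 CPM after R837, against 2.98, 3.71, 3.48 and 3.29 untreated. Likeness here is a description over 8 group means that share libraries and treatment, and libraries at 0 counts enter it as they do above.

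Where genes next to the 8 on the chromosome were tested, they changed far less. Slco2b1, Tox2 and Cmah had no tested neighbour or overlapping gene. Of the tested neighbours and overlapping genes in TBK1-WT control, Fam98a beside Rasgrp3 changed by 0.05 ± 0.10, Ltbp1 on its other side by -0.07 ± 0.38, Thada beside Plekhh2 by 0.20 ± 0.06 and Noc4l beside Galnt9 by 0.19 ± 0.08. The lowest was Arhgap21 beside Etl4, at -0.88 ± 0.23 (edgeR adjusted p = 0.00249). Within the span of Etl4 the pseudogenes Gm13361, Gm13360 and Gm13328 changed by 0.91 ± 0.49, 1.63 ± 0.65 and 0.14 ± 0.25. Reads of Etl4 and of these pseudogenes could be shared where their sequences match, which these counts do not show.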

How the data were processed

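RNA of mouse bone marrow-derived macrophages was measured by RNA-seq in 24 libraries, TruSeq RNA v2 per the labels' protocols, a kit that does not mark strand. Each deposited file lists a read count per Ensembl gene. The authors aligned to GRCm38 and used GSNAP, per the submitters' processing notes. The deposited RPKM values are the authors' counts divided by gene length and by a library total. They serve here for levels between genes alone. How reads were assigned to genes, and with which annotation release, is not stated in the labels, and the deposited width differs from the exon length of GENCODE vM21 for 7 of the 8 genes. The 233 identifiers without a symbol held 0.0187% of counts.

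Counts were fitted in edgeR 4.0.16 (R 4.3.3) with 1 mean per group over all 24 libraries, TMM scaling and filterByExpr (minimum count 10, minimum total 15), which left 14681 genes. The quasi-likelihood test gave p, with Benjamini-Hochberg adjustment over all tested genes per comparison (threshold 0.05). Residual degrees of freedom numbered 16 and the common biological coefficient of variation was 0.116. The standard error is the log2 change over the square root of F, and can understate the error of genes with few counts. CPM are counts over the TMM-scaled library total, and log2 CPM has an offset of 0.5. Intervals for a remaining share are exact binomial ones (95%) on counts summed over a group, scaled by library totals. The fit was tested on simulated data. DESeq2 1.42.0 and other alternatives are described at the end. The genes, lists and tests were chosen with earlier results of these data known. All 8 genes are named. From each list the 2 called genes with the largest rise and the 2 with the largest fall in TBK1-WT control are named. Family members beside them (Rasgrp2, Rasgrp4, Galnt1, Galnt6, Galnt7, Galnt10, Galnt11, Gne, Nans, Cmas, Npl, Tox, Tox3, Srcin1) were named after their values were seen. Replicate numbers follow the order of the records, and no pair of replicates held identical values.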

Additional observations from a re-analysis of the deposited data

Results flagged for a closer look

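In 5 cases the change of a gene after R837 differed between genotypes by a test of the difference itself (edgeR, adjusted over all 14681 genes, 3 libraries per group). The genes were picked for their fall after R837, so these tests draw in part on the values that chose them. Tox2 had a smaller fall in TBK1-cKD control than in TBK1-WT control, by 1.39 log2, with all 3 R837 libraries of TBK1-cKD control above all 3 of TBK1-WT control. In the libraries labelled TBK1-cKD with IKKe knockout the difference for Tox2 was 2.04, again with 3 of 3 R837 libraries above. In those libraries the fall was deeper for Rasgrp3, by a difference of -1.95, with 3 of 3 R837 libraries below all of TBK1-WT control, and for Galnt9, by -3.25, also with 3 of 3 below. The share of all genes whose libraries separate in this way is not given here. After R837, 32.2% of all genes were called between these libraries and TBK1-WT control, and 8.89% between TBK1-cKD control and TBK1-WT control. For Etl4 the difference was -1.31, the R837 libraries overlapped, and the call did not survive the removal of most single libraries. Ikbke goes against the label in the untreated ones of these libraries and in R837 replicate 3, and its part was not tested. On the 14 libraries of high nuclear RNA level the differences for Rasgrp3 and Galnt9 were -2.99 and -3.88. For Galnt9 the R837 libraries labelled TBK1-cKD with IKKe knockout held 0, 7 and 2 counts. Only the last of them is of the high level, so that -3.88 sets 1 library with 2 counts against 1 of TBK1-WT control with 26.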

How the results depend on the processing

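No paired analysis was possible because the labels give no replicate numbers and do not say which libraries share a mouse. The number of called differences in untreated cells was 6 of 24 tests, and became 11 with DESeq2, 13 with the groups of each comparison alone, 11 once the nuclear RNA level entered the model and 12 when the 14 libraries of high level were used. Leaving out 1 replicate gave 4 to 6. After R837 the number was 5, became 9 with DESeq2 and was 4 to 8 without 1 replicate. With the groups of each comparison alone it was 3. Tests of Cmah, Plekhh2 and Etl4 were lost to the count filter there, among them a called difference of Etl4. For response differences it was 5, and 4 to 6 without 1 replicate. The median change of the 8 genes in TBK1-WT control, -6.28, ran from -6.43 to -5.98 without 1 replicate. The cause of these shifts was not tested. None of the 16 called differences reversed in 219 alternative fits, 195 of these kept the call, and 11 of the 16 kept it in each fit run. The 24 lost calls are those of Slco2b1 and Gpr34 in untreated cells, Tox2 in TBK1-cKD control after R837 (groups alone) and Etl4. A further 13 differences were called by at least 1 alternative. Of 43 differences called in none, 21 changed sign in at least 1. Of 299 alternative fits of named related genes, 292 kept the call, and the other 7 were of Siglech. R837 counts of 0 to 64 per library limit what can be seen of the remainders.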
